A study of Sus scrofa with 9 samples.

Results

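AMP-activated protein kinase (AMPK) is the energy sensor of the cell, a complex of a catalytic alpha subunit, a scaffolding beta subunit and a nucleotide-binding gamma subunit. When ATP runs down, AMP and ADP bind the gamma subunit and the kinase LKB1 (gene STK11) phosphorylates the alpha subunit, and the active complex promotes glucose uptake and fatty acid oxidation and restrains lipid synthesis and growth. In heart muscle the alpha2 subunit, encoded by PRKAA2, is the main catalytic form, and AMPK is known to be switched on within minutes of ischemia by phosphorylation. Kinase activity was not measured here: the values below are transcription of the subunit genes.

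The genes were taken by name, as every gene of the deposited table whose RefSeq accession maps to a pig symbol starting with PRKAA, PRKAB or PRKAG. This gave 6 genes of the 3890 with a symbol, out of 7 subunit genes in the RefSeq list of the pig. Nascent RNA was measured by GRO-seq, in which nuclei extend their engaged RNA polymerases with a labelled nucleotide and the new RNA is sequenced. The samples came from female farm pigs, 3 in all, whose distal left anterior descending coronary artery had been closed with a coil 24 hours earlier. Each pig gave 1 ischemic, 1 border zone and 1 healthy sample of myocardium, so each zone has 3 libraries. Replicate numbers 1 to 3 in the sample titles were taken to stand for the pigs in every zone. The healthy samples are therefore tissue of infarcted hearts, and all nuclei came from collagenase-treated tissue. Library totals, worked back from RPKM and span as whole reads since no depth is stated, were 883656 to 2134087 reads in ischemic, 2187977 to 7005976 in border zone and 2730083 to 6531658 in healthy myocardium. Values are RPKM, reads per length of the annotated span and scaled to the library total, introns included, so that levels can be compared between genes per length.

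Of the 6 genes, 5 had a position on a chromosome of the susScr3 build, and all 5 passed the filter, a 9-library mean no lower than 0.5 RPKM. PRKAA1, the other catalytic subunit (alpha1), was placed only on an unplaced scaffold and was listed at 0 in all 9 libraries. None of the 548 positions on unplaced scaffolds held a read in any library, so that 0 is no measurement of PRKAA1. The longest PRKAG3 position also lay on such a scaffold and was listed at 0, and PRKAG3 is described from its position on chromosome 15. PRKAG2 was not analysed here. The set was proposed with values of these libraries known, those of PRKAA2 among them, so the subunit genes are described without p-values. Differences are given as log2 of RPKM + 0.1 with the SE of a limma fit over all 9 libraries, a scale that understates changes of weakly transcribed genes.

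PRKAA2 had the largest differences of the 5 subunit genes in both comparisons against healthy myocardium, while in ischemic against border zone PRKAG3 differed more. Its position (NM_214266_1, chromosome 6 from 143547653 to 143572957, plus strand) spans 25304 bp with 1851 bp of exon. It was transcribed at 0.444, 0.485 and 0.447 RPKM in ischemic, 1.28, 2.15 and 1.44 RPKM in border zone and 3.79, 4.0 and 3.03 RPKM in healthy myocardium of pigs 1 to 3. The 3 zones did not overlap, and a separation downward was seen for 14.9% of all positions in ischemic against healthy, 6.71% in border zone against healthy and 11.5% in ischemic against border zone. The ischemic sample was the lowest and the healthy sample the highest in each of the 3 pigs. The group means were 0.459 ± 0.0226 RPKM in ischemic, 1.63 ± 0.465 RPKM in border zone and 3.61 ± 0.511 RPKM in healthy myocardium (SD, n = 3 each).

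In ischemic against healthy myocardium PRKAA2 differed by -2.72 ± 0.23 on the log2 scale (SE), which is 6.60-fold lower, with -2.84, -2.81 and -2.52 in pigs 1 to 3. Border zone against healthy gave -1.13 ± 0.23, or 2.18-fold lower, and ischemic against border zone gave -1.60 ± 0.23, or 3.02-fold lower. These comparisons share libraries, since each zone enters 2 of them. The median over all 2384 positions tested was 0.21, 0.22 and -0.04 in the same 3 comparisons, and relative to it PRKAA2 differed by -2.94, -1.34 and -1.56. Counted from the most strongly lowered position, PRKAA2 ranked 70th of 2384 in ischemic against healthy, 97th in border zone against healthy and 167th in ischemic against border zone. Zones that did not overlap, with ischemic lowest and healthy highest, were found for 77 positions, 3.23% of those tested, and the opposite order for 61 positions, 2.56%.

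The ischemic level of PRKAA2 rests on few reads. The ischemic libraries held 24, 14 and 10 reads of it, against 115, 382 and 80 in border zone and 262, 347 and 501 in healthy libraries. Pooled over a zone these are 48, 577 and 1110 reads, and the pooled ratio of ischemic to healthy was 0.132, with an exact 95% counting interval of 0.0967 to 0.176. The pooled ratio of ischemic to border zone was 0.255 (0.186 to 0.343), and that of border zone to healthy was 0.517 (0.467 to 0.573). Such intervals cover counting error only, since reads need not be independent molecules. A second position listed under PRKAA2 (NM_214266, chromosome 6 from 143495003 to 143495144, minus strand) spans 141 bp and held 2, 10 and 9 reads in all ischemic, border zone and healthy libraries together. Its zones overlapped, and it is not used further as a level of PRKAA2.

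**Figure D1:**
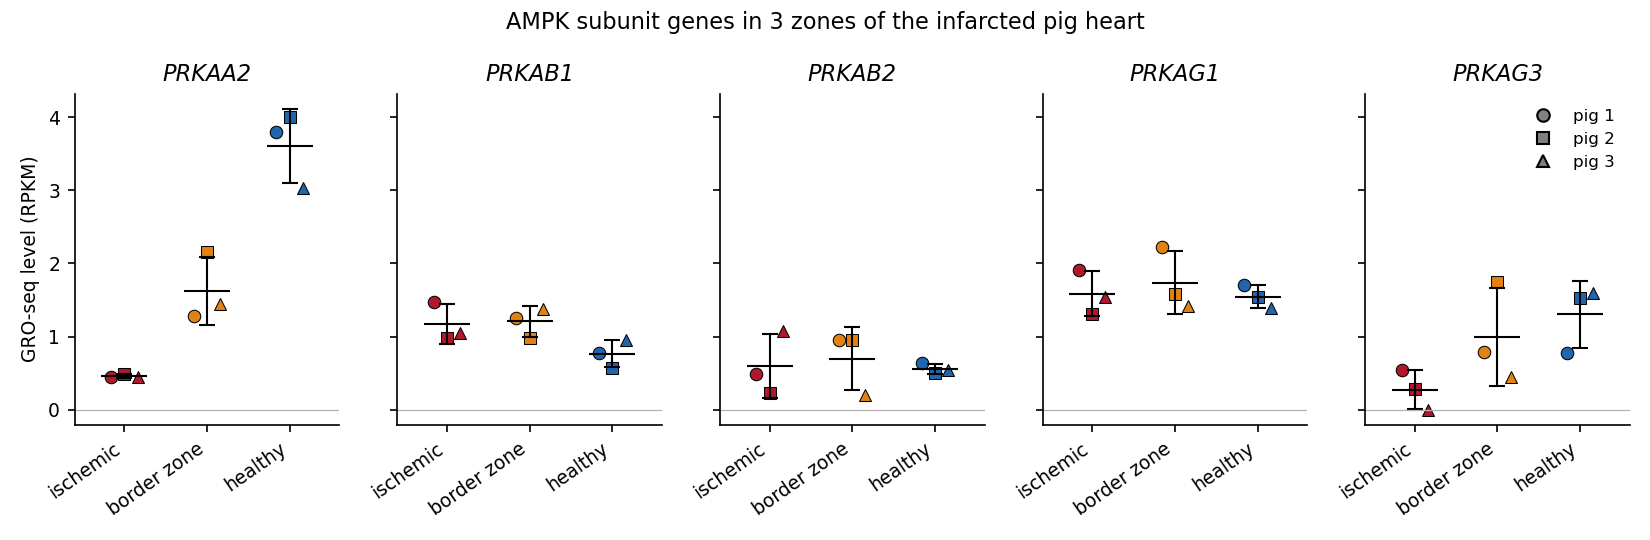
Transcription of the 5 AMPK subunit genes with a chromosome position, in RPKM, 1 panel per gene. Points are the libraries of the 3 pigs, with ischemic at the left, border zone in the middle and healthy at the right, and the bar with its whisker is the mean ± SD (n = 3). PRKAA2 stood at 0.444 to 0.485 RPKM in ischemic, 1.28 to 2.15 RPKM in border zone and 3.03 to 4.0 RPKM in healthy myocardium, while PRKAG1 overlapped between all zones.

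The beta subunits hold the complex together and carry its carbohydrate-binding module, and neither had all its ischemic libraries below its healthy ones. PRKAB1 (beta1, NM_001243621, chromosome 14 from 35147993 to 35163200, minus strand) stood at 1.48, 0.980 and 1.04 RPKM in ischemic, 1.26, 0.976 and 1.38 RPKM in border zone and 0.771, 0.576 and 0.946 RPKM in healthy myocardium. Ischemic and border zone libraries each lay above all healthy ones, by 0.55 ± 0.26 and 0.61 ± 0.26 on the log2 scale. Such a separation upward was seen for 28.4% of positions in ischemic against healthy and for 25.7% in border zone against healthy, so it is common in these libraries. Relative to the median position the differences were 0.34 and 0.39. Ischemic and border zone libraries of PRKAB1 overlapped, with a log2 difference of -0.05 ± 0.26.

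PRKAB2 (beta2, NM_001243683, chromosome 4 from 110208123 to 110219706, plus strand) is the beta form best known from striated muscle. It had 0.485, 0.227 and 1.07 RPKM in ischemic, 0.948, 0.949 and 0.197 RPKM in border zone and 0.632, 0.504 and 0.542 RPKM in healthy myocardium. The zones overlapped in all 3 comparisons. The log2 differences were -0.11 ± 0.61 for ischemic against healthy, 0.07 ± 0.61 for border zone against healthy and -0.18 ± 0.61 for ischemic against border zone. The ischemic libraries held 12, 3 and 11 reads of it and the border zone libraries 39, 77 and 5. The pooled ratio of border zone to healthy was 1.49 with a counting interval of 1.11 to 2.00, while border zone replicate 3 lay below all healthy libraries and the other 2 above them.

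The gamma subunits bind the adenine nucleotides, and gamma1, encoded by PRKAG1, is the widely expressed form. PRKAG1 (NM_001001642, chromosome 5 from 15443955 to 15522471, minus strand) had the most reads of the family, 107 to 320 per ischemic, 243 to 870 per border zone and 367 to 713 per healthy library. Its levels were 1.91, 1.31 and 1.54 RPKM in ischemic, 2.22, 1.58 and 1.41 RPKM in border zone and 1.71, 1.54 and 1.39 RPKM in healthy myocardium. All zones overlapped, and the difference was 0.02 ± 0.23 in ischemic against healthy and 0.14 ± 0.23 in border zone against healthy. Scaling the libraries to the same median gave -0.19 and -0.12 in these 2 comparisons, so no direction can be given. The position spans 78516 bp for 1079 bp of exon, and on the Sscrofa11.1 assembly KMT2D, RHEBL1, DHH and LMBR1L lie between PRKAG1 and TUBA1B, while the table has no position for those 4 genes. Reads from any of them inside this span would count as PRKAG1.

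PRKAG3 encodes gamma3, a form known from fast skeletal muscle, where a pig variant is known for its effect on muscle glycogen. At its chromosome 15 position (NM_214077, 133800767 to 133806881, plus strand) it was listed at 0.536, 0.287 and 0 RPKM in ischemic, 0.783, 1.75 and 0.449 RPKM in border zone and 0.779, 1.53 and 1.60 RPKM in healthy myocardium. The ischemic libraries held 7, 2 and 0 reads, and the limit that a count of 0 allows in ischemic replicate 3, 3 reads, is 0.555 RPKM. The ischemic libraries lay below all healthy ones, with a log2 difference of -2.21 ± 0.72, and such a separation downward was seen for 14.9% of positions. The pooled reads, 9 in ischemic and 109 in healthy libraries, gave a ratio of 0.252 (0.112 to 0.496). Without ischemic replicate 3 the difference was -1.44. Border zone libraries overlapped with the healthy ones (-0.48 ± 0.72) and with the ischemic ones (ischemic against border zone, -1.73 ± 0.72). Of the 10 skeletal muscle markers on chromosomes 7 held reads, and MYH4, PVALB and MYOD1 were listed at 0 in all 9 libraries. Without ACTA1, the skeletal alpha-actin gene, the list summed to 0.837 to 1.21 RPKM in ischemic, 0.0956 to 1.69 RPKM in border zone and 0.319 to 1.20 RPKM in healthy libraries, and the zones overlapped. MYLPF, a fast myosin light chain gene, had 0.638, 0.894 and 1.15 RPKM in ischemic and 0, 0.298 and 0.156 RPKM in healthy libraries. In border zone it had 0, 0.194 and 0 RPKM, and it was under the filter. Its reads were 10, 4 and 6 in all ischemic, border zone and healthy libraries together. ACTA1 went the other way, with means of 48.4 RPKM in ischemic and 95.5 RPKM in healthy libraries, which overlapped. The part of skeletal muscle genes in the PRKAG3 values was not tested.

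**Figure D2:**
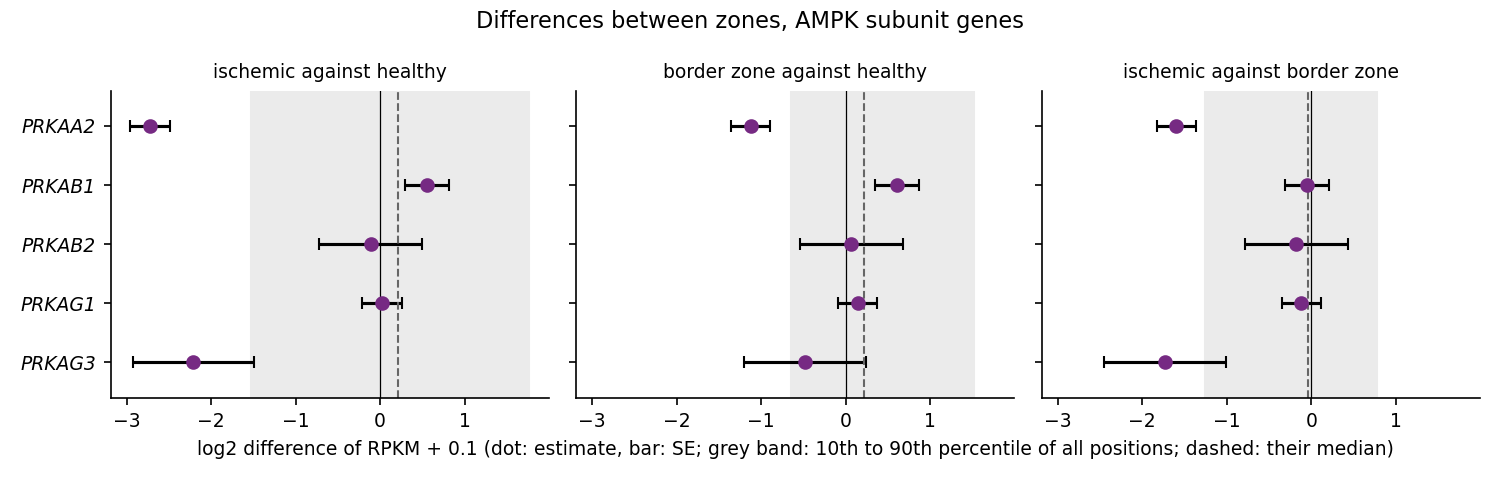
Log2 differences of RPKM + 0.1 for the 5 subunit genes in ischemic against healthy (left), border zone against healthy (middle) and ischemic against border zone (right). Dots are estimates, bars the SE of the limma fit, the grey band the 10th to 90th percentile of all 2384 positions and the dashed line their median. PRKAA2 lay below the band in all 3 panels, at -2.72, -1.13 and -1.60, and PRKAG3 in the left and right ones, at -2.21 and -1.73, while PRKAB1, PRKAB2 and PRKAG1 lay inside it.

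The order of the subunit genes by level differed between zones. In healthy myocardium PRKAA2 was the highest in all 3 libraries and overlapped with no other subunit gene. Below it PRKAG1, PRKAG3, PRKAB1 and PRKAB2 followed by mean level, each overlapping with the next. In border zone PRKAA2 was the highest in replicates 2 and 3, and PRKAG1 in replicate 1, and neighbours in the order overlapped throughout. In ischemic myocardium PRKAG1 was the highest in all 3 libraries, and PRKAA2 came 5th, 3rd and 4th of 5 in replicates 1 to 3, within the range of PRKAB2. Reads of other genes inside the PRKAG1 span would raise its place in this order and lower ratios taken against it. Their share was not measured. A ratio within a library does not depend on the scaling of the library. PRKAA2 stood at 0.233, 0.371 and 0.290 times PRKAG1 in ischemic, 0.576, 1.36 and 1.02 times in border zone and 2.22, 2.61 and 2.18 times in healthy myocardium. Against PRKAB1 the ratio was 0.30, 0.495 and 0.429 in ischemic, 1.02, 2.21 and 1.05 in border zone and 4.92, 6.95 and 3.2 in healthy myocardium. For both ratios no zone overlapped with another. Against PRKAB2 the ratio was 0.916, 2.14 and 0.416 in ischemic, 1.35, 2.27 and 7.32 in border zone and 6.0, 7.94 and 5.59 in healthy myocardium. There the border zone overlapped with both other zones, and ischemic and healthy libraries did not overlap. Of the summed level of the 5 measured genes PRKAA2 made up 9.15%, 14.8% and 10.9% in ischemic, 19.7%, 29.1% and 29.6% in border zone and 49.3%, 49.1% and 40.3% in healthy libraries.

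Heart muscle genes moved with PRKAA2. Of the 16 heart muscle markers that could be tested, 11 fell in ischemic against healthy myocardium and none rose at an adjusted p under 0.05 (limma, Benjamini-Hochberg), beside 9.1% of all positions that fell and 18.5% that rose. Their median log2 difference was -1.81, from -3.40 for MYOCD, a cardiac transcriptional coactivator, to -0.52 for DES, the intermediate filament desmin, which did not pass. PRKAA2, at -2.72, was further down than 12 of the 16 markers and less far down than 4. In border zone against healthy none of the 16 passed, with 9 at an unadjusted p under 0.05, beside 21.4% of all positions. By limma-voom 8 of the 16 were called, beside 12.4% of all positions, of which 1.64% were lower. Their median was -0.95 where PRKAA2 had -1.13. The calls over all positions in this comparison were 5.79% higher and 0.21% lower.

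The summed level of the 16 markers was 210, 347 and 146 RPKM in ischemic, 291, 417 and 267 RPKM in border zone and 833, 543 and 503 RPKM in healthy libraries, and none of them was at 0 in any zone. Per 1000 RPKM of that sum PRKAA2 had 2.11, 1.40 and 3.06 RPKM in ischemic, 4.4, 5.17 and 5.41 RPKM in border zone and 4.55, 7.37 and 6.03 RPKM in healthy libraries. This ratio was lower in all ischemic than in all border zone and healthy libraries, and border zone and healthy overlapped. Genes of high level weigh most in that sum, such as MYH7, with means of 151 RPKM in healthy and 61.6 RPKM in ischemic. Taken singly, 4 of the 16 markers were further down than PRKAA2 in ischemic against healthy and 12 less far. In bulk tissue fewer heart muscle cells and less RNA per heart muscle cell cannot be told apart.

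Markers of macrophages and neutrophils moved the other way. The sum of 13 macrophage and monocyte genes was 33.3 to 46.4 RPKM in ischemic, 14.4 to 28.6 RPKM in border zone and 3.44 to 5.36 RPKM in healthy libraries. The 7 neutrophil genes summed to 17.3 to 38.4 RPKM in ischemic, 9.56 to 19.2 RPKM in border zone and 0.534 to 0.918 RPKM in healthy libraries, and S100A8, S100A9 and S100A12 were at 0 in all healthy libraries. In ischemic against healthy, 7 of 9 macrophage, 5 of 6 neutrophil and 4 of 6 endothelial markers tested rose at an adjusted p under 0.05 (limma). So did 5 of 9 fibroblast and 1 of 4 lymphocyte genes, beside the 18.5% of all positions that rose. None of these lists had a gene that fell at that threshold. The macrophage genes C1QA and C1QC were lower without being called, with log2 differences of -1.04 and -0.90. The fibroblast genes DCN and LUM were too, with -0.57 and -0.63. In border zone against healthy 5 of 9 macrophage, 4 of 6 neutrophil, 2 of 9 fibroblast and 1 of 4 lymphocyte genes rose, beside 5.79% of all positions. None of the 6 endothelial genes was called there by limma or limma-voom, and none had an unadjusted p under 0.05. The lymphocyte sum was 6.0 to 9.38 RPKM in ischemic, 4.38 to 10.9 RPKM in border zone and 1.97 to 3.94 RPKM in healthy libraries. The 5 smooth muscle and pericyte genes include DES, which is also a heart muscle marker. Without DES the other 4 summed to 4.47 to 4.77 RPKM in ischemic, 2.92 to 3.71 RPKM in border zone and 2.39 to 3.15 RPKM in healthy libraries. Border zone replicate 2 had the highest PRKAA2, PRKAG3 and heart muscle sum of its zone and the lowest macrophage sum. The part of cell composition in the PRKAA2 values was not tested.

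**Figure D3:**
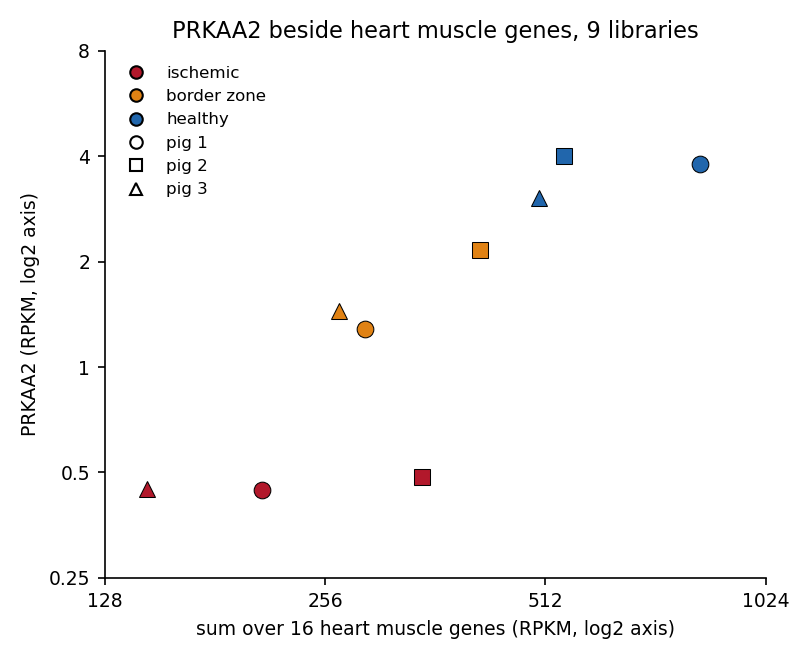
PRKAA2 (vertical, RPKM) against the summed level of 16 heart muscle genes (horizontal, RPKM) in the 9 libraries, both on log2 axes. Colours mark ischemic, border zone and healthy myocardium, and marker shapes the 3 pigs. The ischemic libraries sat at 0.444 to 0.485 RPKM of PRKAA2 over muscle sums of 146 to 347 RPKM, below the border zone libraries, whose sums of 267 to 417 RPKM overlapped with theirs.

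The genes whose levels followed PRKAA2 most closely over the 9 libraries were taken by Pearson r of log2(RPKM + 0.1) among 1983 genes, as a description with no p, since the libraries share zones, pigs and depth. The 6 highest were HOMER1 (r = 0.986), PROX1 (0.984), CAST (0.984), FYCO1 (0.984), PDE3A (0.983) and DHRS4 (0.980). HOMER1 encodes a scaffold protein, PROX1 a homeobox transcription factor, CAST the calpain inhibitor calpastatin, FYCO1 an autophagosome transport adaptor, PDE3A a cardiac cAMP phosphodiesterase and DHRS4 a short-chain dehydrogenase. HOMER1 stood at 0.281 to 0.40 RPKM in ischemic, 0.627 to 1.13 RPKM in border zone and 1.35 to 2.00 RPKM in healthy libraries. PDE3A stood at 1.01 to 2.08 RPKM in ischemic, 4.34 to 6.19 RPKM in border zone and 10.2 to 13.3 RPKM in healthy libraries. The zones of both genes did not overlap, as for PRKAA2, which is close to given for genes picked by this r. Zones in that order without overlap were found for 3.23% of all positions. With the mean of each zone taken out, r was 0.939 for HOMER1 and 0.587 for PROX1. Among the most opposite genes were ACVR1B, an activin receptor (-0.987), and TAGLN, the smooth muscle protein transgelin (-0.980). In all, 89 genes had an r of at least 0.9 and 66 an r of at most -0.9.

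The genes around AMPK were then counted over 7 lists of regulators, substrates and downstream genes, which held 175 genes, 75 of them in the table and 52 tested. In ischemic against healthy myocardium 6 of the 52 rose and 10 fell, 11.5% and 19.2%, beside 18.5% and 9.1% of all positions. Both directions together were 30.8% of the 52, beside 27.6% of all positions, and their median was -0.47 against 0.21 for all positions. After median scaling of the libraries the counts were 4 and 13, beside 14.1% and 12.4% of all positions, and with quantile normalization 3 and 11, beside 10.4% and 10.5%. The total of 16 called became 6 without healthy replicate 2, beside 14.8% of all positions, and 7 without healthy replicate 3, beside 17.2%. It became 9 without healthy replicate 1, beside 21%, and 9 without ischemic replicate 3, beside 19.1%. With the pig as a term TFAM was lost and TNNI3, PPP2CA, PDK4 and GABARAPL1 were gained, all 4 lower, with limma adjusted p of 0.0271, 0.0286, 0.0206 and 0.0389, beside 31.5% of all positions called. These 4 were named after their values were seen. In border zone against healthy 2 rose and 1 fell, 5.77% of the 52 beside 6% of all positions. In ischemic against border zone limma called none of the 52, where 0.168% of all positions rose and 0.965% fell, 1.13% in all. Of the 52, 9 had an unadjusted p under 0.05, beside 15.6% of all positions, and limma-voom called 3, beside 3.86%. Heart muscle and inflammatory cell markers moved in the same comparisons, with the sums given above, and their part in these genes was not tested.

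Of the upstream regulators 5 were tested and 1 fell in ischemic against healthy, 20% beside 9.1% of all positions. ADIPOR2, a receptor for the hormone adiponectin, which acts in part through AMPK, had 0.803, 1.58 and 1.22 RPKM in ischemic and 4.41, 3.74 and 3.67 RPKM in healthy myocardium. The log2 difference was -1.67 ± 0.25 (adjusted p = 0.00296, limma). The groups did not overlap, and the call held without each library in turn. The upstream kinase genes STK11 and CAMKK2, and the substrate genes ULK1 and EEF2K, were not analysed here.

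Among the substrates in lipid and glucose metabolism 3 of 10 fell and 1 rose in ischemic against healthy. These were 30% and 10%, beside 9.1% of all positions that fell and 18.5% that rose. ACACB encodes the mitochondrial acetyl-CoA carboxylase, whose product malonyl-CoA blocks fatty acid entry into mitochondria and which AMPK inhibits. It had 0.380, 0.651 and 0.222 RPKM in ischemic, 1.00, 1.63 and 0.951 RPKM in border zone and 2.6, 2.45 and 2.18 RPKM in healthy libraries. Its zones did not overlap, like those of PRKAA2, and the log2 difference of ischemic against healthy was -2.36 ± 0.34 (limma adjusted p = 0.00258), a call that held without each library. The cytosolic carboxylase gene ACACA was under the filter and overlapped between zones, with 0.372, 0.444 and 0.425 RPKM in ischemic, 0.396, 0.392 and 0.338 RPKM in border zone and 0.360, 0.463 and 0.374 RPKM in healthy libraries.

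PLD1, a phospholipase D gene, fell by 1.09 ± 0.25 on the log2 scale (limma adjusted p = 0.0151). IRS1, the insulin receptor substrate gene, fell by 1.07 ± 0.34 (limma adjusted p = 0.0496). NOS3, the endothelial nitric oxide synthase gene, rose by 1.10 ± 0.32 (limma adjusted p = 0.0368). NOS3 is also one of the 6 endothelial markers, whose sum was 17.4 to 37.1 RPKM in ischemic and 8.41 to 10.3 RPKM in healthy libraries. The call of PLD1 was lost without healthy replicate 2 or 3 (adjusted p = 0.0525 and 0.0564). Those of IRS1 and NOS3 were each lost without any of 7 of the 9 libraries, with adjusted p up to 0.105 and 0.108. Without healthy replicate 1 IRS1 was under the filter and was not tested.

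None of the 7 tested substrates in growth, autophagy and transcription was called by limma in ischemic against healthy, with 1 at an unadjusted p under 0.05, beside 40.5% of all positions, and 1 called by limma-voom. TNNI3, the cardiac troponin I gene, which is in this list and among the heart muscle markers, passed with the pig as a term. Of 11 genes of mTORC1, the growth-promoting kinase complex that AMPK restrains, and of autophagy, 1 fell and 2 rose. That is 9.09% and 18.2%, near the 9.1% of all positions that fell and the 18.5% that rose. RRAGD, a small GTPase gene that brings mTORC1 to the lysosome, had 0.0524, 0.235 and 0 RPKM in ischemic and 0.958, 0.966 and 1.00 RPKM in healthy libraries, a log2 difference of -2.64 ± 0.57 (limma adjusted p = 0.0128). Its ischemic libraries lay far below the healthy ones, and the call held without each ischemic or border zone library. Without any healthy library RRAGD was under the filter and was not tested. EIF4EBP1, a translation repressor that mTORC1 inactivates, had 2.63, 3.69 and 3.57 RPKM in ischemic and 1.16, 0.614 and 0.537 RPKM in healthy libraries (2.02 ± 0.51, limma adjusted p = 0.0226). GABARAP, of the ATG8 family that coats autophagosomes, had 4.14, 7.75 and 10.6 RPKM in ischemic and 1.26, 2.29 and 2.26 RPKM in healthy libraries (1.84 ± 0.49, limma adjusted p = 0.0259). GABARAPL1, of the same family, had 2.50, 4.59 and 2.06 RPKM in ischemic and 6.38, 5.33 and 5.51 RPKM in healthy libraries, which did not overlap (-0.97 ± 0.32, limma adjusted p = 0.0557, and 0.0389 with the pig as a term). The calls of EIF4EBP1 and GABARAP were lost without any of 3 and 5 of the 9 libraries, with adjusted p up to 0.0718 and 0.0753.

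Of 17 genes of energy use linked to AMPK, 4 fell and 3 rose in ischemic against healthy. The shares were 23.5% and 17.6%, beside 9.1% of all positions that fell and 18.5% that rose. The fatty acid transporter gene CD36 had a log2 difference of -3.08 ± 0.35 (limma adjusted p = 0.00122), with 0.704, 1.25 and 0.416 RPKM in ischemic and 8.01, 6.20 and 6.48 RPKM in healthy libraries. SLC2A4, the insulin-sensitive glucose transporter GLUT4, had -2.57 ± 0.69 (limma adjusted p = 0.0278), with 0.226, 1.27 and 0.182 RPKM in ischemic and 3.06, 4.04 and 1.92 RPKM in healthy libraries. SLC2A4 is listed at 2 positions of equal length, on chromosomes 12 and 3, so its reads may be split between them. This call of CD36 held without each library, and that of SLC2A4 was lost without healthy replicate 1 or 2 or ischemic replicate 1 or 3, with adjusted p up to 0.0895.

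TFAM, a mitochondrial transcription factor gene, had 2 reads in the ischemic and 27 in the healthy libraries, a pooled ratio of 0.226 with an interval of 0.0260 to 0.899. Its call (limma adjusted p = 0.0422) was lost with the pig as a term (adjusted p = 0.0784). PPARA and PPARD, nuclear receptors of fatty acid metabolism, were named after their values were seen. PPARA had 0.383, 0.526 and 0.494 RPKM in ischemic and 3.16, 2.88 and 1.44 RPKM in healthy libraries, a log2 difference of -2.13 ± 0.46 (limma adjusted p = 0.0132). PPARD moved the other way, with 3.70, 1.26 and 2.06 RPKM in ischemic and 0.667, 0.702 and 0.636 RPKM in healthy libraries, a log2 difference of 1.54 ± 0.42 (limma adjusted p = 0.0278). In border zone against healthy PPARD differed by 1.67 ± 0.42 (limma adjusted p = 0.0566), and passed with the pig as a term (adjusted p = 0.028). The PPARD call in ischemic against healthy was lost without any of 5 of the 9 libraries, with adjusted p up to 0.0746, and the TFAM call without any of 6, with adjusted p up to 0.113.

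HK2, the muscle hexokinase gene, had 3.14, 1.29 and 2.78 RPKM in ischemic, 1.73, 0.807 and 1.15 RPKM in border zone and 0.247, 0.123 and 0.144 RPKM in healthy libraries. The log2 difference was 3.14 ± 0.40 in ischemic against healthy (limma adjusted p = 0.00171) and 2.26 ± 0.40 in border zone against healthy (limma adjusted p = 0.0182). UCP2, a mitochondrial carrier gene of the uncoupling protein family, had 2.27, 1.61 and 2.26 RPKM in ischemic, 2.21, 1.48 and 1.22 RPKM in border zone and 0.672, 0.292 and 0.179 RPKM in healthy libraries. Its difference was 2.27 ± 0.39 in ischemic against healthy (limma adjusted p = 0.00516) and 1.94 ± 0.39 in border zone against healthy (limma adjusted p = 0.0322). CD36 fell in border zone against healthy too, by 1.51 ± 0.35 on the log2 scale (limma adjusted p = 0.0448). The border zone calls were lost without any of 4 of the 9 libraries for HK2, 5 for UCP2 and 7 for CD36, with adjusted p up to 0.0918, 0.126 and 0.180. Of the enzymes of adenylate and phosphocreatine turnover 2 were tested. CKMT2, the muscle mitochondrial creatine kinase gene, had 0.344, 2.52 and 0.208 RPKM in ischemic and 6.28, 5.15 and 6.25 RPKM in healthy libraries (-3.07 ± 0.78, limma adjusted p = 0.0228), a call lost without any of 5 of the 9 libraries, with adjusted p up to 0.0710. None of the 13 AMPK-related kinase genes of the seventh list had a position in the table.

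**Figure D4:**
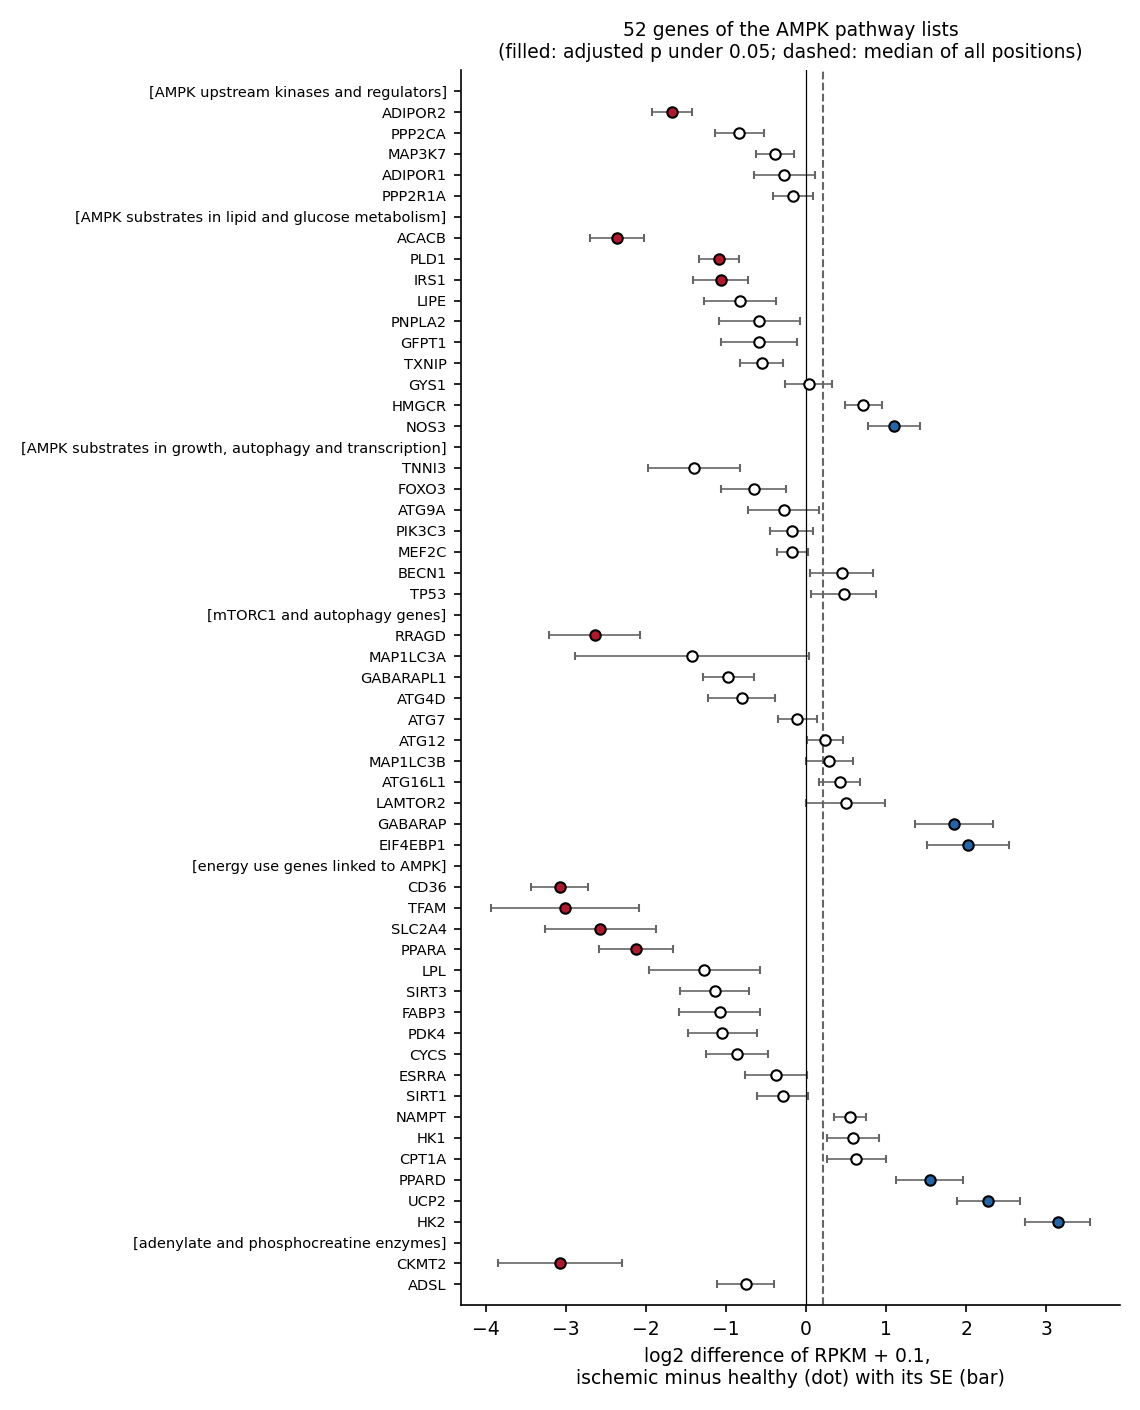
Log2 difference of RPKM + 0.1, ischemic minus healthy, for the 52 tested genes of the AMPK lists, grouped by list. Dots are estimates and bars the SE of the limma fit, filled dots passed an adjusted p under 0.05 (red lower, blue higher), and the dashed line is the median of all 2384 positions. The 10 that fell ranged from -3.08 (CD36) to -1.07 (IRS1), and the 6 that rose from 1.10 (NOS3) to 3.14 (HK2).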

How the data were processed

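GRO-seq was compared in 3 ischemic, 3 border zone and 3 healthy libraries. Reads were aligned to susScr3 with Bowtie, version not given, per the submitters' processing notes. The deposited table gives the authors' RPKM per annotated span at 4882 positions, and all nonzero values came out as whole reads within 0.01 reads. The sources used here do not give the counting program, its strand setting or the treatment of duplicates.

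Positions averaging 0.5 RPKM or more, 2384 of them, were fitted as log2(RPKM + 0.1) with limma 3.58.1 in R 4.3.3 (3 group means, eBayes with trend and robust settings, two-sided, Benjamini-Hochberg within each comparison, threshold 0.05), after a test on simulated data. Python 3.11.15, pandas 2.3.3, scipy 1.17.1 and matplotlib 3.10.9 did the rest. The longest span stood for a gene, and PRKAG3 was taken from its chromosome position. The members and gene lists were chosen with earlier results of these data known. Named genes were the subunit genes, up to 4 called genes of each list in ischemic against healthy and up to 2 in the other comparisons, the textbook partners of AMPK, the leading marker genes, and the 6 genes most and 3 least like PRKAA2, of which 1 is not reported here. Gene names came from a Sscrofa11.1 RefSeq table.

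Same-numbered libraries were taken to come from the same pig, by the replicate number in the sample titles. Their deviations from the zone means correlated by -0.037 to 0.179. For libraries of different zones and different numbers the range was -0.156 to 0.082, which overlaps with it. Alternatives were other pseudocounts, filters and scalings, the pig as a replicate block, limma-voom on whole reads, the highest-mean position, and leaving out each library.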

Additional observations from a re-analysis of the deposited data

How the results depend on the processing

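PRKAA2, with a mean under 2 RPKM, was not fitted with the filter of 2 RPKM. At the position described above its direction was the same under the other alternatives run. In ischemic against healthy its log2 difference was -2.93 with libraries scaled to the same median, -2.95 with quantile normalization, -2.92 with limma-voom, -2.91 with a pseudocount of 0.02 and -2.09 with one of 0.5. The 141 bp position, which has the higher mean, gave -1.87 ± 2.56 (SE), and -1.67 ± 2.56 in border zone against healthy. Pigs 1 to 3 gave 6.08, -5.41 and -6.27 there in ischemic against healthy, so that position gives no direction. In ischemic against border zone the 141 bp position gave -0.20 ± 2.56, and a pseudocount of 0.5 gave -1.13 at the position described above. Leaving out each library gave PRKAA2 -2.84 to -2.64 in ischemic against healthy, -1.34 to -0.98 in border zone against healthy and -1.74 to -1.39 in ischemic against border zone.

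Counts depended more on the setting. In ischemic against healthy 659 positions were called (442 higher, 217 lower), with 337 higher and 295 lower after scaling to the same median and 249 and 251 after quantile normalization. With a filter of 2 RPKM only 859 positions and 20 AMPK pathway genes were tested. Calls went to 346 positions, 40.3%, and to 5 pathway genes, 4 of these genes among the 16 called otherwise and GABARAPL1 besides. In border zone against healthy 143 positions were called, against 76 with the filter of 2 RPKM, 84 with the same median, 85 with quantile normalization, 86 with a pseudocount of 0.5, 95 with no filter and 296 with limma-voom. The pathway genes there numbered 3 of 52, against 1 of 20 with the filter of 2 RPKM, 1 of 64 with no filter and 7 of 52 with limma-voom. Of all positions 6%, 8.85%, 2.46% and 12.4% were called in the same settings. In ischemic against border zone 27 positions were called, against 8 with the same median, 5 with quantile normalization, 10 with a pseudocount of 0.5, 3 with no filter and 92 with limma-voom, which called 3 pathway genes.

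Leaving out each library gave 357 to 697, 35 to 174 and 0 to 39 positions in the 3 comparisons, and 6 to 16, 0 to 5 and 0 to 3 pathway genes. The replicate block, with the pig as a term, gave 752, 205 and 29 positions and 19, 4 and 0 pathway genes. PRKAA2 was at -2.72, -1.13 and -1.60 under the block. The block changed the calls of TFAM and PPARD, and added those of TNNI3, PPP2CA, PDK4 and GABARAPL1 in ischemic against healthy. The causes were not tested. PRKAB2 and PRKAG3 had 26 and 9 ischemic reads in all, so their ischemic levels carry wide counting intervals.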
